A study of Mus musculus with 12 samples.

Results

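The genes described here encode the subunits of oxidative phosphorylation: the 4 complexes of the mitochondrial respiratory chain and the ATP synthase. Members were taken by symbol, as Sdha, Sdhb, Sdhc, Sdhd, Cyc1 and every symbol beginning with Ndufa, Ndufb, Ndufc, Ndufs, Ndufv, Uqcr, Cox4, Cox5, Cox6, Cox7, Cox8 or Atp5, among probe sets that the array annotation gives to a single gene. This gave 91 of 18193 genes, with 180 probe sets, and 51 members had several. Each member was represented by the probe set with the highest mean on the log2 scale over 12 arrays. Complexes were assigned from the symbol alone, so that Ndufa4 and Ndufa4l2 count under complex I by their prefix, whichever complex holds their proteins. This gave 36 genes of complex I and 8 complex I assembly factors, whose Ndufaf symbols share the Ndufa prefix. There were 4 genes of complex II, 9 of complex III, 17 of complex IV and 17 of complex V. A filter on low values, passed by genes above the 25th percentile of the array on at least 3 arrays, left 90 members among 15420 genes tested, and the member left out was Cox7b2. A further 10 probe sets were shared between genes and were not used, which left out 8 symbols found only there, among them Ndufa11 and Ndufs6.

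Complexes I and II pass electrons from NADH and succinate to ubiquinone, complex III passes them to cytochrome c, and complex IV passes them to oxygen. Complexes I, III and IV pump protons across the inner mitochondrial membrane, and complex V, the ATP synthase, makes ATP as the protons return. Some subunits of the chain are encoded by mitochondrial DNA and are not members here, and several complex IV subunits exist as pairs of isoforms, such as Cox7a1, abundant in heart and skeletal muscle, and the more widely expressed Cox7a2.

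The study compared 4 groups of 3 samples: MBD2-/- leukaemia cells, MBD2 wild-type leukaemia cells, MBD2-/- CD4+CD8+ double-positive (DP) thymocytes and MBD2 wild-type DP thymocytes. MBD2 is a protein that binds methylated DNA. The leukaemias were T-cell acute lymphoblastic leukaemias (T-ALL) driven by Notch1 and grown in transplanted mice, and GFP+ cells were sorted from the marrow once they made up over 50% of white blood cells, while the thymocytes came from mice with no leukaemia. Leukaemias and thymocytes thus differ in tissue and in transplantation as well as in being leukaemic, and strain, age, the promoter behind Notch1, the extent of the Mbd2 deletion and whether the 3 leukaemias of a genotype arose from separate transplants are not stated in the labels.

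Expression was measured on an Affymetrix mouse array, and a value below is the deposited intensity of a probe set, not on a log scale. The Mbd2 probe set averaged 54.4 ± 12.4 in MBD2-/- leukaemias and 820 ± 119 in wild-type leukaemias (SD, n = 3 each). It averaged 72.1 ± 10.7 in MBD2-/- thymocytes and 1136 ± 206 in wild-type thymocytes (SD, n = 3 each). Mbd2 was thus low in every library labelled MBD2-/-. Cd3e, a T cell receptor component, averaged 2582 ± 404 in MBD2-/- leukaemias, 2177 ± 235 in wild-type leukaemias, 3779 ± 365 in MBD2-/- thymocytes and 4320 ± 222 in wild-type thymocytes. The 7 T cell markers on the array summed to 14518 to 18267 in MBD2-/- leukaemias and 18968 to 23750 in wild-type leukaemias. Of these markers 2 were called lower and 0 higher in MBD2-/- than in wild-type leukaemias, and 5 did not pass. Thy1 averaged 1186 ± 294 in MBD2-/- and 6100 ± 173 in wild-type leukaemias, and Cd2 149 ± 46.0 and 2156 ± 882. The 7 DP markers summed to 394 to 799 in MBD2-/- leukaemias and 8950 to 11510 in wild-type leukaemias. The DP marker Rag1 was at 18.5 ± 7.61 and 39.4 ± 4.86 in MBD2-/- and wild-type leukaemias, against 11113 ± 1731 and 11101 ± 1928 in the matching thymocytes. Cpa3 and Kit, genes of mast cells and early progenitors, averaged 7622 ± 622 and 801 ± 396 in MBD2-/- leukaemias, against 20.7 ± 3.16 and 29.8 ± 7.01 in wild-type leukaemias, while the defining mast cell genes Mcpt4, Cma1, Fcer1a and Ms4a2 had group means of at most 21.6 in any group. Sums of 10 myeloid markers were 325 to 841 in MBD2-/- and 995 to 1848 in wild-type leukaemias, and sums of 5 erythroid markers were 217 to 249 and 286 to 373 in the same order, and the part of these cells in the results was not tested. The sex-linked transcripts Xist and Eif2s3y, singled out after their values were seen, lay at 32.1 to 40.8 and 472 to 574 in MBD2-/- leukaemias, against 3846 to 4819 and 7.01 to 7.59 in wild-type leukaemias. Thymocytes of both genotypes resembled the MBD2-/- leukaemias in these transcripts, with Xist at 28.7 to 45.7 and Eif2s3y at 209 to 531 in wild-type thymocytes. Genotype of the leukaemia and sex of its cells thus cannot be told apart. The same holds for sex in wild-type leukaemias against wild-type thymocytes and in the interaction. MBD2-/- leukaemias and MBD2-/- thymocytes both had low Xist and detected Eif2s3y.

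Control transcripts added to the RNA before labelling (poly-A controls) gave signal on 5 arrays, namely MBD2-/- leukaemia 1, wild-type leukaemias 1 and 2 and wild-type thymocytes 1 and 2, and none on the other 7. The intensity ratio of the Gapdh 3' to 5' probe sets was 0.964 to 1.14 on the 5 arrays and 1.12 to 3.68 on the 7. Fits within each set, with the set as a block and with the Gapdh ratio as a covariate were run as alternatives. Their counts are given where they moved a count by over 1.5 times. Where a fit within a set left a single array in a group, its median member difference is given instead. The highest value of 27 poly-A control probe sets on the arrays without signal was 35.3, and a level under it was treated as background. Ndufb4, Cox8b, Cox7a1, Cox4i2 and Ndufa4l2 lay at or under this value on at least 1 array, and Cox7b2 did so on all 12 arrays.

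**Figure D1:**
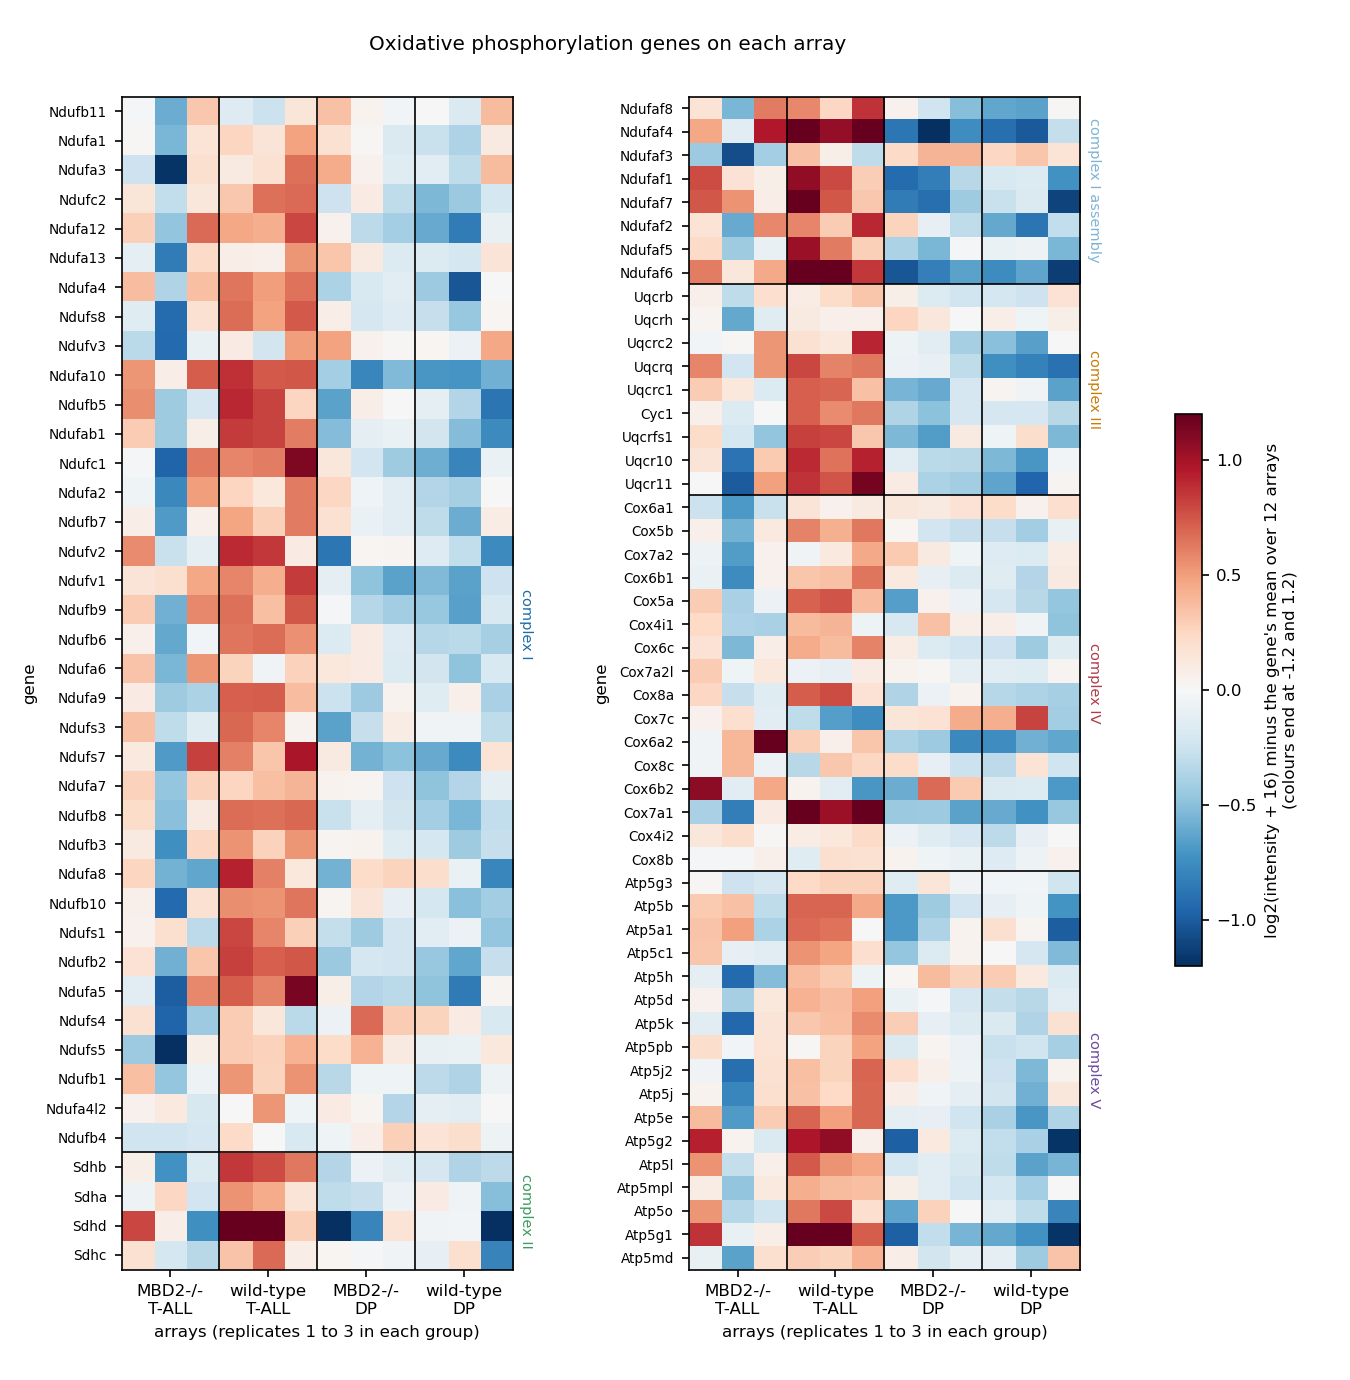
Each row is a gene and each column an array, in the order MBD2-/- T-ALL, wild-type T-ALL, MBD2-/- DP and wild-type DP, and colour gives log2(intensity + 16) minus the gene's mean over 12 arrays. Wild-type leukaemias are red for most genes, and MBD2-/- leukaemia replicate 2 is the lowest of its group for 67 of 90 genes.

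The RefSeq promoter table of build GRCm38.p6, with 250 bases before and 50 after the gene start, held 79 promoters for 74 of the 91 members. These promoters had a median of 20 CpG dinucleotides in 300 bases, against 7 over all 32851 promoters. Binding motifs of factors known to regulate respiratory chain genes were searched as exact letters on both strands. The NRF1 motif CGCATGCG, which reads the same on both strands, occurred in 12.7% of member promoters and 1.87% of all promoters. The YY1 motif, spelled out in capitals in the Ndufa9 promoter, occurred in 6.33% of member promoters and 0.852% of all, GABPA letters CCGGAAGT in 6.33% and 3.89%, and SP1 letters GGGCGG in 45.6% and 35.7%. Each motif was counted on its own, so that overlapping matches of different motifs counted for both, and a match is a description of the sequence. The letters of each motif hold CG, and promoters were not matched for CpG content, whose part in these shares was not tested. Promoters of 3 members are shown with matches of NRF1, GABPA and YY1 in capitals, since they belong to genes described below: Ndufaf4 at chr4:24897833-24898132 on the plus strand with NRF1, Uqcr11 at chr10:80406772-80407071 on the minus strand with GABPA and then NRF1, and Ndufa9 at chr6:126849095-126849394 on the minus strand with YY1. The Ndufaf4 promoter also holds the SP1 letters, left in lower case.
Ndufaf4 promoter: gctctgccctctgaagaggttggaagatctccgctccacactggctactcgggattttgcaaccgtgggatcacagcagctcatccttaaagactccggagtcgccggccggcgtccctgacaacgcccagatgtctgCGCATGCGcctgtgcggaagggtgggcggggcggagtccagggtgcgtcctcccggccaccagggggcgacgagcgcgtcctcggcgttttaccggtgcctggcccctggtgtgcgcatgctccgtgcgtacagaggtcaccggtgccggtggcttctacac
Uqcr11 promoter: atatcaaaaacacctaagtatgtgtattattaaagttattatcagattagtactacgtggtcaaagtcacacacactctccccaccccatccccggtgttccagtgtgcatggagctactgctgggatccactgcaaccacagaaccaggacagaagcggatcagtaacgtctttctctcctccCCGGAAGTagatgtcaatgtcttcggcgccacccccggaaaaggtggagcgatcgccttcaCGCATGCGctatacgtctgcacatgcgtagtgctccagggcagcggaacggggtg
Ndufa9 promoter: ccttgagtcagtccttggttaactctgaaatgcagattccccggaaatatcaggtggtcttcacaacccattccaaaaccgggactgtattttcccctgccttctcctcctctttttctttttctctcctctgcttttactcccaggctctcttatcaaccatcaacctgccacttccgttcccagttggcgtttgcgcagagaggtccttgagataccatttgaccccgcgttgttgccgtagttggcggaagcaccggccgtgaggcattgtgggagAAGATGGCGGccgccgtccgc
The Ndufaf4 and Ndufa9 genes were among the members higher in wild-type leukaemias than in wild-type thymocytes, as was Uqcr11. Ndufa9 averaged 2580 ± 356 in wild-type leukaemias and 1515 ± 237 in wild-type thymocytes (SD, n = 3 each). Values of Ndufaf4 and Uqcr11 are given below.

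MBD2 deletion in the leukaemia was the first comparison, and it asked which genes differ between leukaemias with and without MBD2. Oxidative phosphorylation genes were mostly lower in MBD2-/- leukaemias: the log2 difference was negative for 85 of 90 members and for 9447 of all 15420 genes tested. The median was -0.51 for members, against -0.06 over all genes. By limma, with a Benjamini-Hochberg adjusted p under 0.05 over all genes, 10 members fell (Cyc1, Cox7a1, Sdhb, Ndufa9, Ndufb6, Ndufab1, Ndufaf6, Atp5g3, Ndufb8 and Uqcrfs1), 1 rose (Cox7c) and 79 did not pass. An unadjusted p under 0.05 was reached by 43 members and by 29.0% of all genes. Over all genes 6.98% fell and 9.19% rose, and the 10 of 90 members that fell make 11.1%, so the share called was above the background by a few members, while the direction was shared by nearly all. All 3 MBD2-/- arrays lay below all 3 wild-type arrays for 44 members, or 48.9%, against 18.4% of all genes, and above them for 1 member, against 15.0% of all genes. The count of calls moved with the processing: with the replicate number as a block, 45 members fell and 1 rose, while the calls over all genes also grew, to 1936 lower and 1935 higher. The labels do not say that a number marks a shared animal or batch, so the pairing behind this block is an assumption. Without wild-type replicate 1 or without wild-type replicate 2, 2 members fell, and the calls over all genes were 607 lower and 1092 higher without replicate 1, and 535 lower and 877 higher without replicate 2. With each array centred on its 75th percentile, 31 members fell and 1 rose, and the calls over all genes were 1355 higher and 1656 lower, against 1417 higher and 1076 lower as deposited.

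The MBD2-/- leukaemias were not uniform. On the log2 scale, the median over members of the deviation from a gene's mean on 12 arrays was 0.14, -0.43 and 0.08 in MBD2-/- leukaemias 1 to 3, against 0.55, 0.43 and 0.46 in wild-type leukaemias 1 to 3. Replicate 2 of the MBD2-/- leukaemias was the lowest of its group for 67 of 90 members and for 31.6% of all genes. The median SD of members between replicates was 0.41 in MBD2-/- leukaemias and 0.21 in wild-type leukaemias, against 0.17 and 0.15 over all genes. Without replicate 2, 9 members fell and 0 rose, 6 of the 9 being among the 10 above, and the median was -0.35. An unadjusted p under 0.05 by limma was reached by 34 members and by 3916 of all 15420 genes. Over all genes 757 fell and 1168 rose in that fit. Among arrays with poly-A signal the median was -0.31 and among arrays without it -0.64, each with a single array in one of the groups. In bulk samples, fewer cells of a type and less RNA per cell cannot be told apart.

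**Figure D2:**
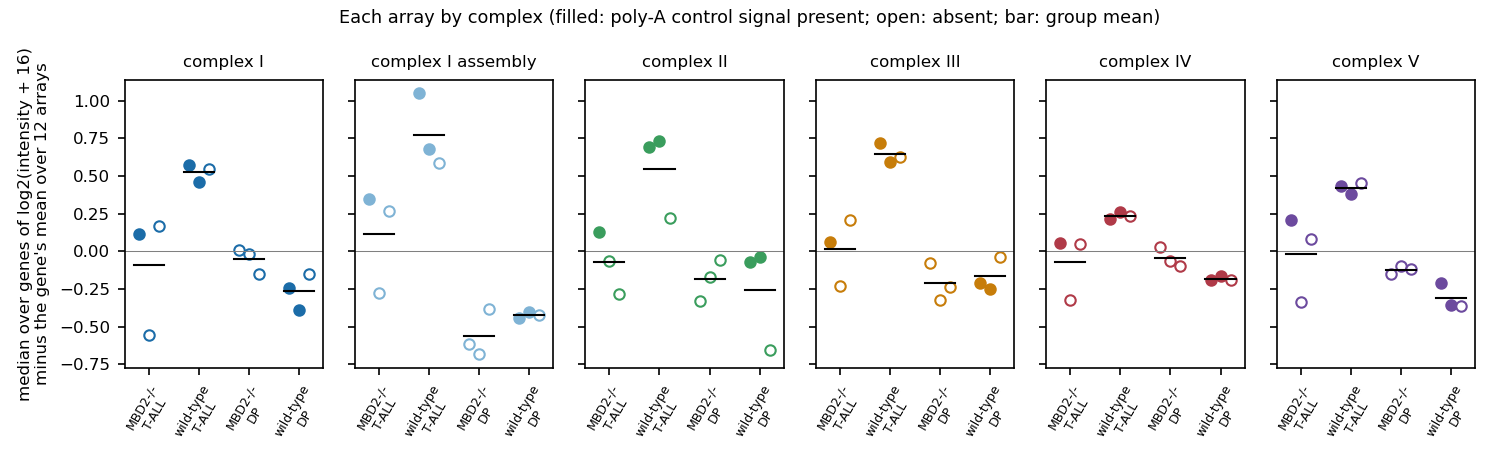
Each point is an array and gives the median over the genes of a complex of log2(intensity + 16) minus the gene's mean over 12 arrays, with groups on the horizontal axis. Filled points had poly-A control signal, open points had none, and bars are group means. In every complex the 3 wild-type leukaemias lie above all 3 MBD2-/- leukaemias.

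Complex I showed the common direction in every gene. All 36 genes had a negative difference between MBD2-/- and wild-type leukaemias, with a median of -0.56, and 4 passed. Ndufa9, a subunit of the matrix arm near the junction with the membrane, had 1803, 1247 and 1286 in MBD2-/- leukaemias, against 2775, 2795 and 2169 in wild-type leukaemias (log2 -0.84, SE 0.18, adjusted p = 0.0213). Ndufb6, an accessory subunit of the membrane arm, had 1920, 1201 and 1796 in MBD2-/- leukaemias and 2886, 2946 and 2709 in wild-type leukaemias (log2 -0.82, SE 0.18, adjusted p = 0.0254). In both genes the groups did not overlap, and replicate 2 was the lowest of the MBD2-/- arrays. Ndufb8, another membrane arm subunit, had 1839, 1105 and 1703 in MBD2-/- leukaemias, against 2521, 2507 and 2554 in wild-type leukaemias (log2 -0.73, SE 0.19, adjusted p = 0.0450). Ndufab1, the mitochondrial acyl carrier protein, had 2544, 1534 and 2173 in MBD2-/- leukaemias and 3701, 3637 and 3167 in wild-type leukaemias (log2 -0.77, SE 0.19, adjusted p = 0.0375). The wild-type values of Ndufb8 lay close together, and the MBD2-/- values were spread widely below them. The catalytic core differed in the same direction without passing: Ndufs1, the large iron-sulfur subunit, averaged 887 ± 157 in MBD2-/- and 1336 ± 240 in wild-type leukaemias (SD, n = 3 each, log2 -0.58, SE 0.18, adjusted p = 0.0812). With the replicate block Ndufs1 passed (adjusted p = 0.0135 by limma). Ndufv1, which binds NADH, averaged 2321 ± 287 in MBD2-/- and 2961 ± 426 in wild-type leukaemias, and its groups overlapped (log2 -0.35, SE 0.15, adjusted p = 0.171). It was lower in MBD2-/- leukaemias within each of the 3 replicate numbers (adjusted p = 0.0519 with the replicate block). Ndufb11 and Ndufa1, the 2 members on the X chromosome, had log2 differences of -0.01 (SE 0.24) and -0.42 (SE 0.20). The Ndufb4 probe set was above 35.3 on 1 of 12 arrays, so no fold is given for it.

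The 8 complex I assembly factors, which build complex I and are not part of it, had a median of -0.61, and all 8 differences were negative. Ndufaf6 fell: it had 179, 123 and 158 in MBD2-/- leukaemias, against 362, 312 and 213 in wild-type leukaemias (log2 -0.86, SE 0.22, adjusted p = 0.0381). Its groups did not overlap, and the call was kept in 1 of the 6 fits that left out an array. Ndufaf4 averaged 875 ± 323 in MBD2-/- leukaemias and 1498 ± 174 in wild-type leukaemias (SD, n = 3 each) and did not pass (log2 -0.82, SE 0.26, adjusted p = 0.0847), but passed with the replicate block (adjusted p = 0.0151).

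Of the 4 genes of complex II, succinate dehydrogenase, Sdhb fell. Sdhb, the iron-sulfur subunit, had 2606, 1484 and 2201 in MBD2-/- leukaemias, against 4456, 4274 and 3834 in wild-type leukaemias (log2 -1.03, SE 0.21, adjusted p = 0.0171). The highest MBD2-/- value was well below the lowest wild-type value. Sdha, the flavoprotein subunit, averaged 1601 ± 274 in MBD2-/- and 2106 ± 284 in wild-type leukaemias, and Sdhd, a membrane anchor, 1333 ± 685 and 2494 ± 933 (SD, n = 3 each), and in both genes the groups overlapped. Both were lower in MBD2-/- leukaemias within each replicate number, and with the replicate block Sdhd passed (adjusted p = 0.00499 by limma) and Sdha did not (adjusted p = 0.0542).

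Complex III had the member with the smallest p. Cyc1, cytochrome c1, had 2019, 1726 and 1923 in MBD2-/- leukaemias, against 3194, 2867 and 3001 in wild-type leukaemias (log2 -0.67, SE 0.10, adjusted p = 0.00576). The call was kept in all 6 fits that left out an array. Uqcrfs1, the Rieske iron-sulfur protein, had 2010, 1479 and 1236 in MBD2-/- leukaemias and 3058, 3016 and 2149 in wild-type leukaemias (log2 -0.80, SE 0.22, adjusted p = 0.0499), just past the threshold. Uqcrc2, a core protein, averaged 2724 ± 617 in MBD2-/- and 3268 ± 1074 in wild-type leukaemias with overlapping groups (SD, n = 3 each), and it was lower within each replicate number (adjusted p = 0.169 by limma with the replicate block). Uqcr11, a small subunit, had the most negative difference of all members other than Cox7a1 and did not pass: 1422, 706 and 2016 in MBD2-/- leukaemias, against 2622, 2425 and 3179 in wild-type leukaemias (log2 -1.10, SE 0.36, adjusted p = 0.0888, or 0.0145 with the replicate block). The wide spread of its MBD2-/- values went with the large SE. All 9 genes of the complex had a negative difference, with a median of -0.50.

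Complex IV, cytochrome c oxidase, was mixed, with 11 negative and 5 positive differences among 16 tested genes. Cox7a1, the isoform abundant in muscle, had 34.0, 20.8 and 54.3 in MBD2-/- leukaemias, against 147, 118 and 265 in wild-type leukaemias, and it passed (adjusted p = 0.0106 by limma). It was above 35.3 on 1 of 3 MBD2-/- arrays, 3 of 3 wild-type leukaemia arrays and on no thymocyte array. The size of the difference is thus a bound: Cox7a1 was at least 4.08-fold higher in wild-type than in MBD2-/- leukaemias, with values under 35.3 set to it. The 4 muscle or heart markers (Ckm, Myh6, Myl2 and Actn2) summed to 151 to 191 in MBD2-/- leukaemias and 120 to 144 in wild-type leukaemias. Of these, Ckm averaged 125 ± 17.3 in MBD2-/- and 70.3 ± 5.33 in wild-type leukaemias, Actn2 25.9 ± 2.90 and 41.6 ± 7.75 (SD, n = 3 each), and Myh6 and Myl2 were under 35.3 on all 12 arrays. The markers thus had no common order, and the part of muscle cells in the Cox7a1 difference was not tested. Cox7a2, the counterpart of Cox7a1, had 6114, 3998 and 6586 in MBD2-/- leukaemias, against 6185, 6912 and 8726 in wild-type leukaemias, with overlapping groups (log2 -0.40, SE 0.22, adjusted p = 0.296). The promoters of this isoform pair are shown because Cox7a1 passed the test between leukaemia genotypes and Cox7a2 did not, with CpG dinucleotides in capitals: Cox7a1 at chr7:30183921-30184220 on the plus strand has 7, and Cox7a2 at chr9:79759804-79760103 on the minus strand has 20, the median of members.
Cox7a1 promoter: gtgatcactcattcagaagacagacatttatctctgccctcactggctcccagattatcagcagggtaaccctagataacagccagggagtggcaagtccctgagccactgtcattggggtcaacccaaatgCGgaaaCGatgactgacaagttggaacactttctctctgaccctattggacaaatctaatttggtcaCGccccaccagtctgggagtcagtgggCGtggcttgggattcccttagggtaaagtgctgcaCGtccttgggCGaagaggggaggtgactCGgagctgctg
Cox7a2 promoter: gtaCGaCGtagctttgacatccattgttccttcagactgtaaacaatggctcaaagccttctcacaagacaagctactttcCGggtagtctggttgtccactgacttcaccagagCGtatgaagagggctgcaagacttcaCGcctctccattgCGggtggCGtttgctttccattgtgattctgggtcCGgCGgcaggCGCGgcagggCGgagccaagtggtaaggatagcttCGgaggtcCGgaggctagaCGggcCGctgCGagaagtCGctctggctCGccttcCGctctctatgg
DNA methylation was not measured here, so nothing is drawn from these counts about the binding of MBD2.

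Cox7c, a small subunit of complex IV, was the member that rose: it had 641, 713 and 564 in MBD2-/- leukaemias, against 497, 386 and 363 in wild-type leukaemias (log2 0.61, SE 0.15, adjusted p = 0.0371). Every MBD2-/- value was above every wild-type value, and the call was kept in 2 of the 6 fits that left out an array. A second Cox7c probe set averaged 136 ± 34.9 in MBD2-/- and 81.5 ± 28.0 in wild-type leukaemias (SD, n = 3 each), the same order. Cox6a2, the heart and muscle isoform of subunit 6a, had 189, 262 and 1187 in MBD2-/- leukaemias, against 241, 205 and 251 in wild-type leukaemias (log2 0.73, SE 0.61, adjusted p = 0.509). Its high mean came from replicate 3 alone, and a second probe set showed the same, with 18.7, 35.1 and 181 in these 3 arrays. Cox6b2, known as a testis isoform, had 342, 139 and 218 in MBD2-/- leukaemias and 159, 140 and 88.3 in wild-type leukaemias, with overlapping groups (log2 0.73, SE 0.33, adjusted p = 0.205). The widely expressed isoforms pointed the other way: Cox6a1 averaged 8876 ± 1450 in MBD2-/- and 12546 ± 424 in wild-type leukaemias (log2 -0.51, SE 0.14, adjusted p = 0.0523, or 0.0242 with the replicate block), and Cox6b1 4398 ± 1206 and 7002 ± 869 (log2 -0.70, SE 0.22, adjusted p = 0.0815, or 0.0201 with the replicate block; SD, n = 3 each). Cox5a and Cox5b had log2 differences of -0.66 (SE 0.20) and -0.68 (SE 0.19), and Cox4i1 and Cox8a of -0.42 (SE 0.21) and -0.62 (SE 0.21), none of which passed, while with the replicate block Cox5a, Cox5b and Cox8a did (adjusted p = 0.0342, 0.0132 and 0.0356 by limma). Cox4i2 and Cox8c were at 47.2 ± 4.36 and 180 ± 36.8 in MBD2-/- leukaemias, against 48.3 ± 3.11 and 179 ± 45.2 in wild-type leukaemias, and Cox8b was above 35.3 on 2 of 12 arrays, so no fold is given for it. Cox7a2l, which promotes the joining of respiratory complexes, averaged 2852 ± 356 in MBD2-/- and 2553 ± 192 in wild-type leukaemias with overlapping groups.

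**Figure D3:**
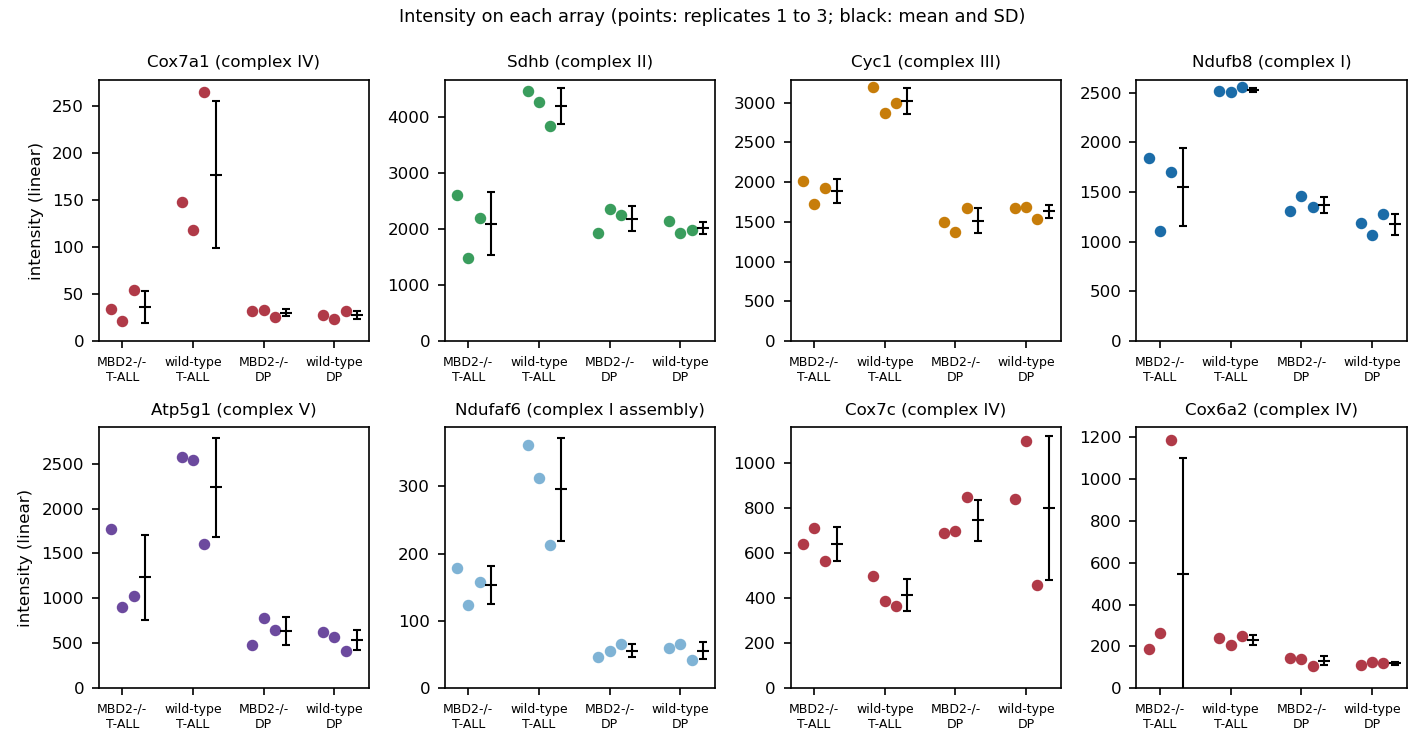
Intensity on a linear scale of 8 members on each array, with the mean and SD of each group in black, and groups in the order MBD2-/- T-ALL, wild-type T-ALL, MBD2-/- DP and wild-type DP. Cox7a1, Sdhb, Cyc1 and Ndufb8 are high in wild-type T-ALL, Cox7c is lower there than in MBD2-/- T-ALL, and the Cox6a2 mean of MBD2-/- T-ALL rests on replicate 3 at 1187, with its SD bar ending at 0 on the axis.

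All 17 genes of complex V had a negative difference between MBD2-/- and wild-type leukaemias, with a median of -0.50, and Atp5g3 passed. The 3 Atp5g genes encode the same mature c subunit of the rotor ring. Atp5g3 had 9465, 7899 and 8126 in MBD2-/- leukaemias, against 11095, 11330 and 11347 in wild-type leukaemias (log2 -0.41, SE 0.11, adjusted p = 0.0416). The difference was the smallest among the members that fell, with wild-type values close together. Atp5g1 had 1774, 907 and 1023 in MBD2-/- leukaemias and 2572, 2534 and 1602 in wild-type leukaemias (log2 -0.88, SE 0.29, adjusted p = 0.0963), with overlapping groups, and passed with the replicate block (adjusted p = 0.0215). Atp5g2 averaged 2579 ± 1121 in MBD2-/- and 3437 ± 1160 in wild-type leukaemias (SD, n = 3 each). The catalytic subunits Atp5a1 and Atp5b had log2 differences of -0.29 (SE 0.28) and -0.50 (SE 0.19) and did not pass, and with the replicate block Atp5b did (adjusted p = 0.0299 by limma).

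**Figure D4:**
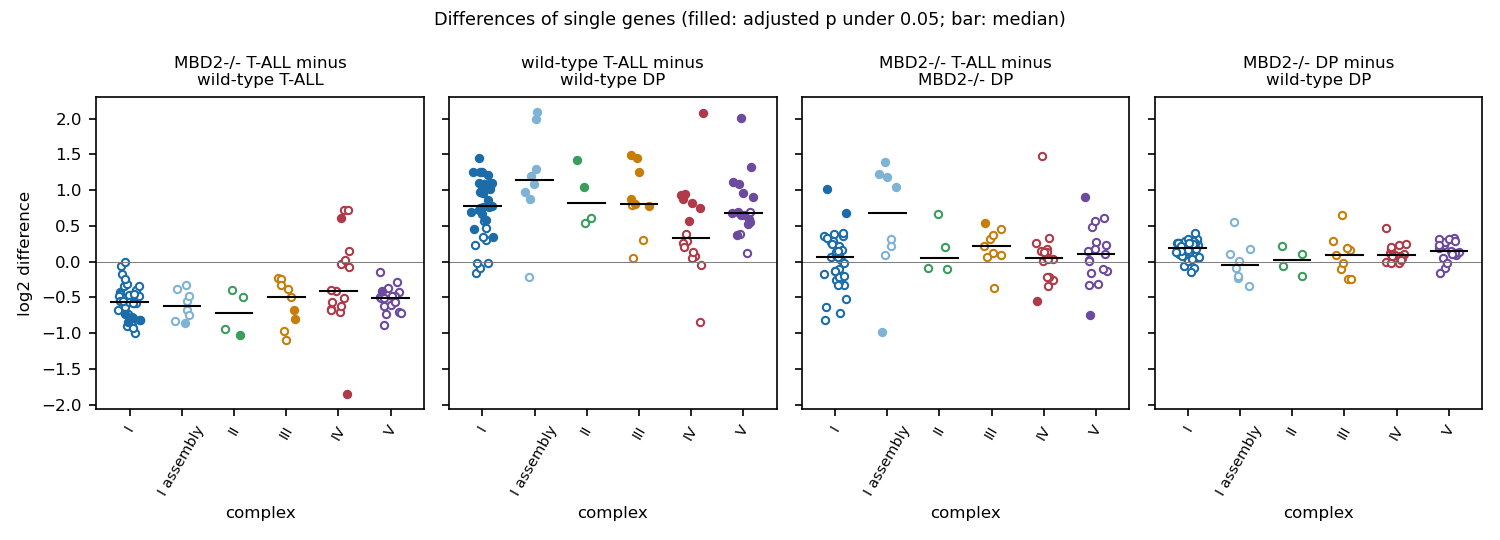
Log2 difference of each gene by complex in 4 comparisons, with filled points at an adjusted p under 0.05 and bars at the median of each complex. MBD2-/- against wild-type leukaemias lies mostly below 0, wild-type leukaemias against wild-type thymocytes mostly above it, and the 2 other comparisons on both sides. Cox7a1 is drawn at its fitted values, which are no measured sizes where a group is near background.

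Wild-type leukaemias were then set against wild-type DP thymocytes, and most oxidative phosphorylation genes were higher in the leukaemias. Of 90 members 62 rose, 0 fell and 28 did not pass, with a median log2 difference of 0.77, against 0.06 over all genes. The 62 make 68.9% of members, while 19.7% of all genes rose and 14.2% fell in this comparison. All 3 leukaemia arrays lay above all 3 thymocyte arrays for 67 members, or 74.4%, against 27.6% of all genes, and below them for 0 members, against 18.0%. An unadjusted p under 0.05 was reached by 69 members and by 41.8% of all genes. The members that rose numbered 26 of 36 in complex I, 7 of 8 assembly factors, 2 of 4 in complex II, 6 of 9 in complex III, 7 of 16 in complex IV and 14 of 17 in complex V. Of the 62 calls, 40 were kept in each of the 6 fits that left out an array, and with the replicate number as a block 74 members rose and 1, Cox7c, fell, while the calls over all genes grew to 4043 higher and 2937 lower, against 3031 and 2197 without the block. Among arrays with poly-A signal, 2 leukaemias and 2 thymocyte samples, the median was 0.74. Markers of other cells moved in this comparison too. Sums of 5 erythroid markers were 286 to 373 in wild-type leukaemias and 107 to 134 in wild-type thymocytes, with 4 of 5 called higher and 0 lower, and sums of 10 myeloid markers were 995 to 1848 and 274 to 670 in the same groups, with 5 of 10 called higher and 0 lower. Of 7 DP markers, 1 was called higher and 6 lower in the leukaemias. The part of these cells in the member differences was not tested. Xist and Eif2s3y also separated these groups, so leukaemia and sex cannot be told apart here.

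Folds among the 62 lay between 1.27 and 4.28 on the scale of value + 16, which understates low genes. Ndufaf6 had 362, 312 and 213 in wild-type leukaemias, against 59.4, 66.2 and 42.2 in wild-type thymocytes (log2 2.10, SE 0.22, adjusted p = 0.000415). Ndufaf4 had 1614, 1298 and 1583 in wild-type leukaemias and 320, 297 and 502 in wild-type thymocytes (log2 1.99, SE 0.21, adjusted p = 0.000421). The lowest leukaemia value of each lay far above the highest thymocyte value. Ndufaf2 and Ndufaf1 rose by 1.19 (SE 0.20) and 1.08 (SE 0.24) on the log2 scale. Atp5g1 had 2572, 2534 and 1602 in wild-type leukaemias, against 623, 575 and 418 in wild-type thymocytes (log2 2.01, SE 0.23, adjusted p = 0.000635). The other c subunit genes moved less, with Atp5g2 at log2 1.32 (SE 0.33, adjusted p = 0.0199) and Atp5g3 at 0.37 (SE 0.10, adjusted p = 0.0279), a call that was lost in each of the 6 fits that left out an array. Cox7a1, not above background in thymocytes, was at least 4.71-fold higher in wild-type leukaemias (adjusted p = 0.00104).

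Other subunits rose with smaller differences than Ndufaf6, Ndufaf4 and Atp5g1. In complex I, Ndufa10, an accessory subunit of the membrane arm, had 4301, 3893 and 3920 in wild-type leukaemias, against 1433, 1423 and 1562 in wild-type thymocytes (log2 1.45, SE 0.10, adjusted p = 7.59e-05), the smallest p among members. Its lowest leukaemia value lay far above its highest thymocyte value. Ndufb2, Ndufb8 and Ndufb6 rose with log2 differences of 1.22 (SE 0.12), 1.10 (SE 0.10) and 0.98 (SE 0.09). In complex II, Sdhb and Sdhd rose, with 1.05 (SE 0.10) and 1.43 (SE 0.41), while Sdha and Sdhc averaged 2106 ± 284 and 550 ± 119 in wild-type leukaemias against 1460 ± 307 and 366 ± 124 in wild-type thymocytes and did not pass (SD, n = 3 each), though both did with the replicate block (adjusted p = 0.00356 and 0.00543 by limma). In complex III, Uqcrq, a small subunit, had 3926, 3401 and 3483 in wild-type leukaemias and 1339, 1272 and 1202 in wild-type thymocytes (log2 1.49, SE 0.10, adjusted p = 8.52e-05). Uqcr11 rose by 1.44 (SE 0.25), Uqcr10 by 1.25 (SE 0.18) and Cyc1 by 0.88 (SE 0.10) on the log2 scale, and Uqcrc1 and Uqcrfs1 were the others that rose there. In complex IV, Cox5a rose by 0.95 (SE 0.14), Cox5b by 0.82 (SE 0.12) and Cox6a2 by 0.87 (SE 0.11) on the log2 scale. In complex V, Atp5e, the epsilon subunit, rose by 1.11 (SE 0.13), Atp5l by 1.08 (SE 0.13) and Atp5d, the delta subunit, by 0.68 (SE 0.10).

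The members that did not pass included some of the most strongly lit probe sets. Cox6a1 averaged 12546 ± 424 in wild-type leukaemias and 13033 ± 804 in wild-type thymocytes, a log2 difference of -0.05 (SE 0.10). A second, dimmer Cox6a1 probe set went the other way, with 4234 ± 568 and 3072 ± 410 in the same groups (log2 0.46). Uqcrh, the hinge protein of complex III, averaged 5073 ± 95.1 in wild-type leukaemias and 4922 ± 247 in wild-type thymocytes (log2 0.04, SE 0.09). The 95% interval was -0.28 to 0.18 for the chosen Cox6a1 probe set and -0.17 to 0.26 for Uqcrh, below the median member difference of 0.77. The lowest difference was that of Cox7c, which had 497, 386 and 363 in wild-type leukaemias, against 841, 1096 and 459 in wild-type thymocytes (log2 -0.85, SE 0.30, adjusted p = 0.0736, or 0.0153 with the replicate block). Its groups overlapped through wild-type thymocyte replicate 3, the lowest of its group. Ndufaf3, an assembly factor, averaged 389 ± 90.1 in wild-type leukaemias and 445 ± 25.8 in wild-type thymocytes (log2 -0.21, SE 0.17, adjusted p = 0.421), and Ndufb11 had a log2 difference of -0.16 (SE 0.18, adjusted p = 0.574).

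MBD2-/- leukaemias set against MBD2-/- thymocytes gave a different count. Here 8 members rose (Ndufaf6, Ndufaf7, Ndufaf4, Ndufaf1, Ndufa10, Ndufv1, Uqcrc1 and Atp5g1), 3 fell (Ndufaf3, Cox6a1 and Atp5h) and 79 did not pass. An unadjusted p under 0.05 was reached by 18 members and by 38.5% of all genes. Over all genes 18.5% rose and 11.0% fell, so that the 8.89% of members that rose and the 3.33% that fell were both below the background. The median member difference was 0.09, against 0.01 over all genes. Of the members 59 were positive and 31 negative, against 7922 and 7498 of all genes. Without MBD2-/- leukaemia replicate 2, 14 members rose and 2 fell, and the median was 0.25, while 2639 genes rose and 1465 fell over all genes. Without replicate 1 the median was -0.0021. The count of 11 became 6, 5 and 7 without MBD2-/- thymocytes 1, 2 and 3. Calls over all genes, higher and lower, were then 2254 and 1498, 2038 and 1252, and 2543 and 1364. Sums of 5 erythroid markers were 217 to 249 in MBD2-/- leukaemias and 110 to 131 in MBD2-/- thymocytes, with 2 of 5 called higher, and sums of 10 myeloid markers were 325 to 841 and 289 to 537, with 0 of 10 called, and their part in the result was not tested. All 3 leukaemia arrays lay above all 3 thymocyte arrays for 12 members, or 13.3%, against 24.4% of all genes, and below them for 6, or 6.67%, against 17.7%. Among the assembly factors 4 of 8 rose and 1 fell, with a median of 0.68, and in complex I itself 2 of 36 rose, with a median of 0.06.

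Ndufaf6 had 179, 123 and 158 in MBD2-/- leukaemias, against 46.5, 55.8 and 65.4 in MBD2-/- thymocytes (log2 1.23, SE 0.16, adjusted p = 0.00128). Ndufaf4 had 855, 563 and 1208 in MBD2-/- leukaemias and 331, 247 and 361 in MBD2-/- thymocytes (log2 1.39, SE 0.28, adjusted p = 0.00821). Ndufaf7, a methyltransferase acting on a complex I subunit, rose by 1.18 (SE 0.21, adjusted p = 0.00465), and Ndufaf1 by 1.04 (SE 0.23, adjusted p = 0.0139) on the log2 scale. In these 4 genes every leukaemia array lay above every thymocyte array. Ndufaf3 went the other way, with 272, 169 and 277 in MBD2-/- leukaemias, against 438, 499 and 500 in MBD2-/- thymocytes (log2 -0.98, SE 0.19, adjusted p = 0.00724). Ndufa10 had 3362, 2470 and 3855 in MBD2-/- leukaemias and 1750, 1348 and 1609 in MBD2-/- thymocytes (log2 1.02, SE 0.19, adjusted p = 0.00567). In Ndufaf3 and Ndufa10 the groups did not overlap. Ndufv1 rose by 0.68 (SE 0.17, adjusted p = 0.0188), Uqcrc1 by 0.54 (SE 0.17, adjusted p = 0.0457) and Atp5g1 by 0.90 (SE 0.28, adjusted p = 0.0494) on the log2 scale. Cox6a1 averaged 8876 ± 1450 in MBD2-/- leukaemias and 12836 ± 284 in MBD2-/- thymocytes (SD, n = 3 each, log2 -0.55, SE 0.14, adjusted p = 0.0241). Atp5h, a stalk subunit of the ATP synthase, averaged 3138 ± 897 in MBD2-/- leukaemias and 5161 ± 640 in MBD2-/- thymocytes (SD, n = 3 each, log2 -0.75, SE 0.22, adjusted p = 0.0373), a call kept in 1 of the 6 fits that left out an array. In Cox6a1 and Atp5h every leukaemia array lay below every thymocyte array, and replicate 2 was the lowest. Cox6a2 had the largest difference, log2 1.48 (SE 0.60, adjusted p = 0.117), which rested on the array at 1187 and did not pass. Ndufs5 averaged 472 ± 220 in MBD2-/- leukaemias and 782 ± 87.2 in MBD2-/- thymocytes and did not pass (SD, n = 3 each, log2 -0.81, SE 0.33, adjusted p = 0.113).

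**Figure D5:**
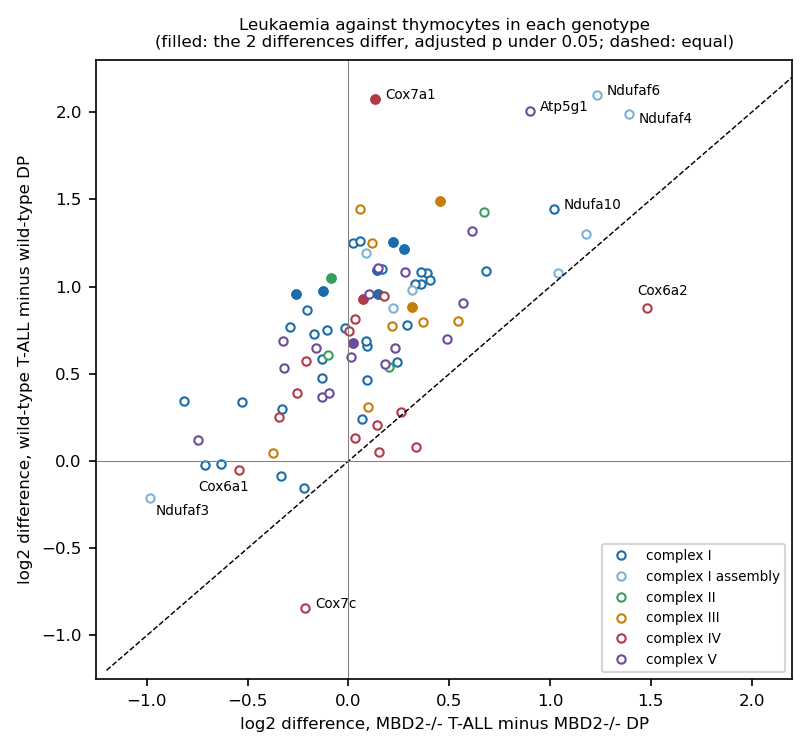
Each point is a gene, with the log2 difference between MBD2-/- T-ALL and MBD2-/- DP on the horizontal axis and that between wild-type T-ALL and wild-type DP on the vertical axis, and the dashed line marks equal differences. Most genes lie above the line, and the 12 filled points are those whose 2 differences differ at an adjusted p under 0.05. Cox7a1 is drawn at its fitted values, which are no measured sizes, since it was under 35.3 on 8 of 12 arrays.

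Whether the effect of MBD2 deletion differed between leukaemia and thymocytes was tested as an interaction in a fit of all 12 arrays, which is the same as testing whether the gap between leukaemia and thymocytes differed between genotypes. The difference of effects was negative for 86 of 90 members and for 8833 of all 15420 genes. The median was -0.68 for members, against -0.05 over all genes. By limma, 12 members had a lower effect in leukaemia (Cox7a1, Ndufb6, Sdhb, Ndufb8, Uqcrq, Cyc1, Ndufb10, Ndufab1, Ndufc2, Atp5d, Cox8a and Ndufb2) and 0 a higher one, while 43 members, and 23.4% of all genes, had an unadjusted p under 0.05. For Cox7a1 the size of the interaction is not given, since 2 of 3 MBD2-/- leukaemia arrays and all 6 thymocyte arrays were under 35.3. The 12 make 13.3% of members, against 4.74% of all genes with a lower and 7.86% with a higher effect. With each array centred on its 75th percentile, 30 members passed, all lower, and the calls over all genes were 1024 higher and 1119 lower, against 1212 higher and 731 lower as deposited. That centring moved the median of all genes to -0.18 and that of members to -0.81. With the replicate block 21 members passed, and the calls over all genes were 1249 higher and 770 lower. That block joined all groups by number, also the thymocyte genotypes and the MBD2-/- groups, whose numbers were not taken as pairs. The count was 5 without wild-type leukaemia 1 or without MBD2-/- thymocytes 2. Calls over all genes, higher and lower, were then 1165 and 607, and 994 and 579. The arrays without poly-A signal left a single array in both wild-type groups. With these arrays only, the median of members was -0.77, against -0.03 over all genes. Cox7a1, Ndufb6, Sdhb and Ndufb8 were kept in each of the 12 fits that left out an array. With a gene's probe sets averaged, 6 of the 12 calls were kept. The comparisons share arrays: the wild-type leukaemias enter the comparison with MBD2-/- leukaemias, the one with wild-type thymocytes and the interaction. In each of these they also differ from the other groups in the sex-linked transcripts.

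Sdhb shows the pattern, with means of 2097 ± 568 in MBD2-/- leukaemias, 4188 ± 320 in wild-type leukaemias, 2180 ± 223 in MBD2-/- thymocytes and 2016 ± 113 in wild-type thymocytes (SD, n = 3 each). The interaction for Sdhb was -1.14 (SE 0.25, adjusted p = 0.0100), and the wild-type leukaemias stood apart from the other 3 groups. Ndufb6 averaged 1639 ± 384, 2847 ± 124, 1759 ± 189 and 1438 ± 38.6 in the same order, with an interaction of -1.10 (SE 0.22, adjusted p = 0.00602). Uqcrq differed in a further way, since its 3 MBD2-/- thymocyte arrays, at 2131, 2109 and 1812, also lay above the wild-type thymocytes, at 1339, 1272 and 1202, and its interaction was -1.04 (SE 0.26, adjusted p = 0.0227). Ndufb10, an accessory subunit of complex I, averaged 1031 ± 381, 1725 ± 63.5, 1173 ± 104 and 882 ± 94.0 in the 4 groups in that order, with an interaction of -1.22 (SE 0.33, adjusted p = 0.0324). Uqcr11 and Ndufa5 had interactions of -1.38 (SE 0.49, adjusted p = 0.0981) and -1.23 (SE 0.49, adjusted p = 0.145) and did not pass. The largest positive interactions were those of Cox7c, 0.63 (SE 0.36, adjusted p = 0.344), Cox6a2, 0.61 (SE 0.69, adjusted p = 0.678), and Cox6b2, 0.25 (SE 0.51, adjusted p = 0.825).

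In thymocytes themselves, MBD2 deletion gave no member past the threshold. By limma 0 of 90 members were called in MBD2-/- against wild-type thymocytes, 8 had an unadjusted p under 0.05, as did 4.68% of all genes, and over all genes 0.0195% were called higher and 0.0130% lower. The signs were uneven, with 71 positive and 19 negative differences, against 7011 positive and 8409 negative over all genes. The median was 0.14 for members, against -0.02 over all genes. All 3 MBD2-/- arrays lay above all 3 wild-type arrays for 9 members, or 10.0%, against 4.06% of all genes, and below them for 0 members, against 4.58%. Uqcrq had the smallest p, with a log2 difference of 0.66 (SE 0.11, adjusted p = 0.268). Ndufb10, with a log2 difference of 0.41 (SE 0.12, adjusted p = 0.891), Atp5e, with 0.34 (SE 0.12, adjusted p = 0.982), and Atp5l, with 0.32 (SE 0.12, adjusted p = 0.982), were also separated by group, as was Ndufb3, with 0.28 (SE 0.11, adjusted p = 0.982). Ndufaf2, with 0.55 (SE 0.20), and Cox6b2, with 0.48 (SE 0.32), had larger differences and overlapping groups. The lowest differences were those of Ndufaf1, at -0.34 (SE 0.21), Uqcrc1, at -0.24 (SE 0.20), and Uqcrfs1, at -0.24 (SE 0.26). In complex II, Sdhb and Sdhc had 0.11 (SE 0.11) and 0.22 (SE 0.24), and in complex IV, Cox8a and Cox7a2 had 0.24 (SE 0.13) and 0.20 (SE 0.13), with overlapping groups. All 3 MBD2-/- thymocyte arrays lacked poly-A signal and 2 of 3 wild-type arrays had it, and among the arrays without signal the median was 0.06.

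Members with several probe sets allowed a check within the arrays. Of 66 further probe sets with a mean intensity over 100, for 45 members, 63 had the sign of the chosen probe set in MBD2-/- against wild-type leukaemias. The same held for 59 of 66 in wild-type leukaemias against wild-type thymocytes and for 49 of 66 in MBD2-/- leukaemias against MBD2-/- thymocytes. When a gene's probe sets were averaged, 16 members were called lower in MBD2-/- leukaemias, 7 of them among the 10 that fell in the main fit. Cox7c lost its call, so that 0 members were higher, while over all genes 1322 were lower and 1503 higher.

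Genes that serve these complexes were followed in 8 lists outside the rule. Over all genes 9.19% were higher and 6.98% lower in MBD2-/- than in wild-type leukaemias. The shares were 19.7% and 14.2% in wild-type leukaemias against wild-type thymocytes, and 18.5% and 11.0% in MBD2-/- leukaemias against MBD2-/- thymocytes. The mitochondrial import list, with translocases and chaperones that bring nuclear-encoded proteins into mitochondria, had 4 of 24 tested genes lower and 0 higher in MBD2-/- than in wild-type leukaemias, with a median of -0.63: Timm13 (log2 -1.26), Chchd4 (-1.13), Gfer (-0.96) and Timm8a1 (-0.86). Chchd4 and Gfer form the relay that folds proteins in the space between the membranes, and the Timm genes encode small translocase proteins. In wild-type leukaemias against wild-type thymocytes 20 of the 24 rose and 0 fell, with a median of 1.31, and in MBD2-/- leukaemias against MBD2-/- thymocytes 10 rose and 0 fell. Of 17 genes of the tricarboxylic acid cycle, which supplies complexes I and II, 5 were lower and 0 higher in MBD2-/- than in wild-type leukaemias, including Dlat (log2 -0.93), Idh3a (-0.86), Suclg2 (-0.57) and Fh1 (-0.50). Against wild-type thymocytes 10 of these 17 rose in wild-type leukaemias, and in MBD2-/- leukaemias 7 of 17 rose against MBD2-/- thymocytes. Of 9 genes for cytochrome c and ubiquinone synthesis, Coq7 (log2 -1.42) and Coq4 (-0.91) were lower in MBD2-/- than in wild-type leukaemias, and 8 of 9 rose and 0 fell in wild-type leukaemias against wild-type thymocytes. Assembly factors outside the rule had 2 of 37 lower and 0 higher in MBD2-/- leukaemias (Coa7, log2 -0.92, and Cox11, -0.71), a share below the 6.98% of all genes. Their median was -0.31. They had 19 higher and 1 lower in wild-type leukaemias against wild-type thymocytes, and 14 higher and 3 lower in MBD2-/- leukaemias against MBD2-/- thymocytes.

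The genes that express and maintain mitochondrial DNA had 3 of 22 lower and 0 higher in MBD2-/- than in wild-type leukaemias, against 6.98% and 9.19% of all genes. These were the elongation factors Gfm1 (log2 -0.76) and Tufm (-0.79) and the polymerase Polg (-0.61). The carriers that exchange ATP, ADP and phosphate, with the membrane channels, had 2 of 10 lower, Slc25a4 (log2 -0.92) and Vdac2 (-0.64), and 0 higher. Of 17 regulators of mitochondrial biogenesis 0 were called between leukaemia genotypes, where the median was -0.12. In wild-type leukaemias against wild-type thymocytes 3 of the 17 were higher and 4 lower, with a median of 0.11, against 19.7% and 14.2% of all genes. In MBD2-/- leukaemias against MBD2-/- thymocytes 3 were higher and 1 lower, with a median of -0.01, against 18.5% and 11.0% of all genes. Against thymocytes of the same genotype, Myc rose by 2.87 in MBD2-/- and by 2.75 in wild-type leukaemias on the log2 scale, and Nrf1 had log2 differences of -0.96 and -0.92. In thymocytes, MBD2 deletion called 0 genes of any of the 8 lists by limma.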

How the data were processed

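Total RNA of 12 samples was labelled from 7 μg and hybridised to Affymetrix mouse arrays, per the labels' protocols. The authors deposited linear intensities per probe set. Which summarisation and normalisation they used is not stated in the labels or headers. Medians of the arrays lay between 5.71 and 5.79 on the log2 scale. Of 45101 probe sets, 34945 named a single gene in the platform annotation, 932 several, 9160 none, and 64 were controls. The value 16 was added, log2 taken, and limma 3.58.1 (R 4.3.3, lmFit and eBayes) fitted to the groups of each comparison, or to all 12 arrays for the interaction, with Benjamini-Hochberg adjustment over 15420 genes. The steps were tested on simulated data with independent noise for each gene, which cannot speak to shifts shared by many genes. Python 3.11.15 and matplotlib 3.10.9 served for tables and figures.

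The members and lists were chosen with earlier results of these data known. Members given in full were those that passed where 30 or fewer did, otherwise the 4 of each complex with the smallest p (2 where under 5 passed), the 3 with the largest difference in each direction, and isoform pairs; of other lists, up to 4 genes that passed. Xist, Eif2s3y, the cell type markers, Myc and members given for their role fall outside this rule and were picked with their values in view.

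The labels do not say that the 3 samples of a group came from separate animals, and p-values then cover only the spread among these samples, which may be technical. The labels do not say either that a replicate number in the titles marks a shared animal or batch. Numbers were checked as pairs by the correlation of deviations from group means. It was 0.40, 0.24 and 0.55 between MBD2-/- and wild-type leukaemias, and 0.45, 0.44 and 0.58 between wild-type leukaemias and wild-type thymocytes. The numbers were thus taken to pair these samples, an assumption drawn from the same data that the block was then fitted to. The correlation was -0.52, 0.14 and -0.49 between the thymocyte genotypes and -0.39, 0.09 and -0.43 between MBD2-/- leukaemias and thymocytes, where the numbers were not taken as pairs. In both wild-type groups, numbers 1 and 2 had poly-A signal and number 3 had none, so number and poly-A set go together there. Alternatives were other added constants, normalisations, filters, probe set choices, variance models, blocks and leaving out each array; the Gapdh ratio as a covariate and fits within the poly-A sets were chosen after seeing the data.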

Additional observations from a re-analysis of the deposited data

Results flagged for a closer look

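For 12 members the effect of MBD2 deletion differed between leukaemia and thymocytes by the interaction test in limma. In complex I the log2 difference of effects, leukaemia minus thymocytes, was -1.10 for Ndufb6, -0.95 for Ndufb8, -1.22 for Ndufb10, -1.04 for Ndufab1, -0.81 for Ndufc2 and -0.94 for Ndufb2. It was -1.14 for Sdhb of complex II, and -1.04 for Uqcrq and -0.57 for Cyc1 of complex III. It was -0.86 for Cox8a of complex IV and -0.65 for Atp5d of complex V. The fitted value for Cox7a1 of complex IV, -1.94, is no measured size, since 2 of 3 MBD2-/- leukaemia arrays and all 6 thymocyte arrays were under 35.3, the level treated as background. The adjusted p lay between 0.00539 for Cox7a1 and 0.0499 for Ndufb2. Of the 12, Cox7a1, Ndufb6, Sdhb and Ndufb8 were called in each of the 12 fits that left out an array, Ndufc2 in 5 and Cox8a in 3. With a gene's probe sets averaged, 18 members were called lower, and 6 of the 12 were among them. Over all genes 1312 were then higher and 912 lower. A trended and robust variance model called 8 members lower, and 7 of the 12 were among them. Over all genes that model called 1189 higher and 707 lower.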

How the results depend on the processing

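The median difference of members kept its sign under every alternative run, except between MBD2-/- leukaemias and MBD2-/- thymocytes, where 0.09 became -0.0021 without MBD2-/- leukaemia replicate 1, the same arrays as those without poly-A signal, and with the poly-A block. Counts of called members moved more. Between MBD2-/- and wild-type leukaemias, 11 members became 7 with a constant of 64 and 7 without a filter. The count was 32 with 75th percentile centring and 28 with all 12 arrays in the fit. Calls over all genes, higher and lower, were 1249 and 930 with the constant of 64, and 1318 and 993 without a filter. They were 1647 and 1463 with all 12 arrays in the fit, against 1417 and 1076 in the main fit. No count is given for fits within a poly-A set, which left a single array in one group. Their medians were -0.31 with signal and -0.64 without it, against -0.07 and -0.04 over all genes. Leaving out 1 array gave 2 to 17 (2 without wild-type leukaemia 2, 3 without wild-type leukaemia 1, 17 without MBD2-/- leukaemia 1). Without MBD2-/- leukaemia 1 the calls over all genes were 1157 higher and 886 lower. Without MBD2-/- leukaemia 3, 14 members fell, 4 of them among the 10 that fell in the main fit. Over all genes 1432 were then higher and 997 lower. With the replicate block the count was 46 there, 5 between MBD2-/- leukaemias and thymocytes (11 without the block) and 21 for the interaction (12 without it), and the block moved no other count by over 1.5 times. Numbers were not taken as pairs between the MBD2-/- groups, nor between the thymocyte genotypes, which also enter the interaction. Leaving out 1 array gave 5 to 16 between MBD2-/- leukaemias and thymocytes (6, 5 and 7 without MBD2-/- thymocytes 1, 2 and 3). It gave 5 to 22 for the interaction: 5 without wild-type leukaemia 1 or MBD2-/- thymocytes 2, 6 without wild-type leukaemia 2 or wild-type thymocytes 2, 7 without MBD2-/- thymocytes 3, and 20 and 22 without MBD2-/- leukaemias 1 and 3. The interaction count was 30 with 75th percentile centring, 25 when the poly-A set was a block and 35 with the Gapdh ratio as a covariate. Calls over all genes, higher and lower, were 1361 and 1064 with the poly-A block and 1723 and 1154 with the covariate. Wild-type leukaemias against wild-type thymocytes gave 43 to 77 and the thymocyte genotypes 0 under every alternative run. Atp5c1 reversed in wild-type leukaemias against wild-type thymocytes, at -0.0952 with the mean of its probe sets, against 0.65. The cause of these changes was not tested, and a lone array left in a group was assumed to vary like the other groups. With 3 arrays a group, their number limits the precision, and probe sets near 35.3 give no usable fold.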

Other observations

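Among 9 genes of mitochondrial antioxidant defence, Nnt, the transhydrogenase that makes NADPH in mitochondria, rose in MBD2-/- against wild-type leukaemias (log2 1.00, SE 0.12, adjusted p = 0.00199 by limma), and Txn2, mitochondrial thioredoxin, fell (log2 -0.72, SE 0.19, adjusted p = 0.0496). The median of the 9 was -0.56, and over all genes 9.19% rose and 6.98% fell in this comparison. In wild-type leukaemias against wild-type thymocytes 7 of the 9 rose and 1 fell, and in MBD2-/- leukaemias against MBD2-/- thymocytes 4 rose and 1, Nnt, fell (log2 -0.82, SE 0.12, adjusted p = 0.00245).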
